A study of Drosophila melanogaster with 12 samples.

Results

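The glutathione S-transferase genes of classes D, E, O, S, T and Z (GstD, GstE, GstO, GstS, GstT, GstZ) and the UDP-glycosyltransferase genes (Ugt) of Drosophila melanogaster were followed in RNA of fly heads. Members were taken by name alone: every gene whose current symbol starts with one of these 6 class names, or with Ugt and a digit. There were 70 such genes among the 13759 genes of the table, 35 of them Gst and 35 Ugt. The sepia gene (se), an omega-class enzyme of eye pigment synthesis, does not carry a class name and is described with the neighbouring pathways. Of the 70, 35 had a mean of at least 10 normalized reads over the libraries and were tested, as were 6552 of all genes.

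The series held 12 libraries made by 3' RNA sequencing of heads of flies in a Canton-S background, all at 18 h, on 0, 25, 50 or 100 percent sucrose. The question it was built for was how head transcripts respond to sucrose when cabut (cbt), a sugar-responsive zinc-finger transcription factor gene, is targeted by RNA interference. The 8 RNAi-labelled libraries came from flies with the driver Tim-gal4 and a UAS-cbt RNAi transgene, 2 libraries at each concentration. The 4 control libraries carried the label +/cbtE1-UAS-cbt RNAi, in which no driver is named, 1 library at each concentration. The UAS-cbt RNAi transgene is thus named in all 12 and the driver in 8. What cbtE1 stands for is not given, so other differences between the genotypes cannot be told apart from the driver. Tim-gal4 acts in cells that use the promoter of the clock gene timeless, so head RNA mixes cells with and without the driver. No label gives the sex or age of the flies, or whether the 2 libraries of a concentration came from different flies; p-values then measure only how these libraries vary, and that variation may be technical.

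Values are 3' reads scaled by 1 factor per library, called normalized reads here. They are not divided by transcript length, so levels of different genes are not ranked as RNA amounts. Libraries held 511487 to 1859280 reads, the fewest in the control at 100 percent sucrose. The targeted gene cbt was not lower in the RNAi-labelled libraries (151 ± 33.6 normalized reads, SD, n = 8) than in the controls (115 ± 22.2, SD, n = 4), with a log2 difference of 0.38 ± 0.13 (SE; limma adjusted p = 0.0539). Its value was 0.19 without the control at 100 percent sucrose. It was called higher in 10 of 26 alternative fits, 4 of them among the 12 that left out a library, and with equal library totals, described below, its value was 0.59 (limma adjusted p = 0.00367). The eye colour gene w (white), which many transgenes carry as a marker, was higher in the RNAi-labelled libraries (log2 difference 1.65 ± 0.27, limma adjusted p = 1.59e-04). Every direction below is therefore one between labels. Among markers of head tissues, photoreceptor genes had a summed level of 30462 to 35339 normalized reads against 31364 to 35178 in the controls, with 1 of 5 called, higher. All 3 tested muscle genes were higher (summed level 721 to 1219 against 640 to 790), as was 1 of 2 hemocyte genes (145 to 186 against 127 to 134). Of 5 glial genes 2 were called higher and 0 lower (1817 to 2225 against 1758 to 1869), and the median log2 fold change of the 5 was -0.07. Both tested neuron genes were lower (118 to 177 against 171 to 228). Of 5 tested fat body genes the yolk genes Yp1, Yp2 and Yp3 were lower and Lsp2 was higher (26258 to 59424 against 53566 to 75797, with Fbp1 at 0 reads). The single tested gut gene was not called (48.1 to 330 against 82.2 to 226), and none of 5 antennal genes reached a mean of 10 (10.8 to 33.3 against 2.24 to 34.4). The part of these tissue differences in the results below was not tested.

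Glutathione S-transferases join the tripeptide glutathione to reactive or fat-soluble compounds, among them insecticides, plant toxins and products of lipid peroxidation, which makes them soluble and ready for export. UDP-glycosyltransferases attach a sugar from a UDP-sugar to small fat-soluble molecules such as plant compounds, pigments, hormones and odorants. In insects both families grew by tandem duplication, so that many members lie side by side on a chromosome, and many are known to be induced by foreign compounds or oxidative stress. Heads hold several tissues that use them, including the fat body, the eye and the antenna.

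Detection differed between the families. Of the Gst genes 24 were tested (3 of 11 GstD, 11 of 14 GstE, 3 of 3 GstO, the single GstS1, 4 of 4 GstT and 2 of 2 GstZ), and of the Ugt genes 11 of 35. The 35 others were 8 GstD genes (GstD2, GstD4, GstD5, GstD6, GstD7, GstD8, GstD10 and GstD11), 3 GstE genes (GstE4, GstE8 and GstE10) and 24 Ugt genes. The Ugt genes were Ugt302E1, Ugt302K1, Ugt303A1, Ugt303B1, Ugt303B2, Ugt303B3, Ugt304A1, Ugt305A1, Ugt307A1, Ugt317A1, Ugt35D1, Ugt35E1, Ugt35E2, Ugt36A1, Ugt36F1, Ugt37A1, Ugt37A2, Ugt37A3, Ugt37B1, Ugt37C1, Ugt37C2, Ugt37E1, Ugt49B2 and Ugt50B3. Of these 35, 22 had a mean under 1, and 7 had no read in any library (GstD5, GstD7, Ugt37E1, Ugt304A1, Ugt49B2, Ugt303B1 and Ugt303B2). Just above the minimum stood Ugt316A1 (10.2 normalized reads), GstE7 (10.3) and GstD3 (10.5), and just under it Ugt317A1 (9.86) and GstE8 (8.99).

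Reads of each family were held by few genes. GstE12, GstD1 and GstE9 together took 69.5 percent of the Gst reads, and Ugt35B1, Ugt49B1 and Ugt35C1 took 57.3 percent of the Ugt reads. Summed over a family, Gst genes had 3357 to 3986 normalized reads in the RNAi-labelled libraries and 3113 to 3341 in the controls. Ugt genes had 566 to 765 and 494 to 602. The Gst sums stood just apart between the labels and the Ugt sums overlapped. As shares of all reads neither overlapped, with 0.332 to 0.423 percent against 0.278 to 0.298 percent for Gst and 0.0584 to 0.0811 percent against 0.0461 to 0.0537 percent for Ugt. Whether the Ugt genes separate by label thus depends on the scaling, while the width of the gap for Gst does.

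**Figure D1:**
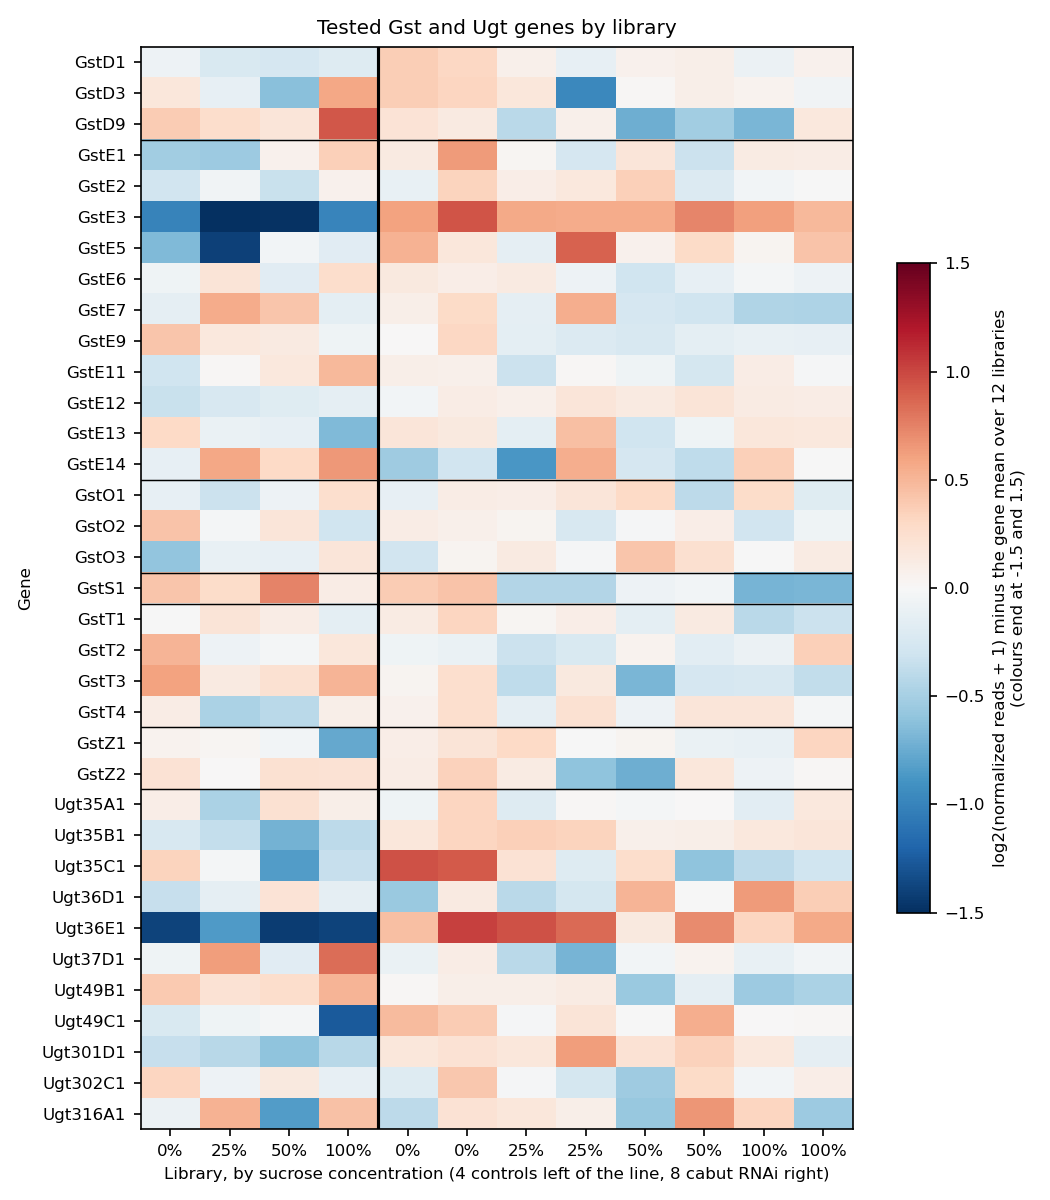
Each row is 1 of the 35 tested genes and each column 1 library, with the 4 controls left of the vertical line and the 8 RNAi-labelled libraries right of it, both ordered by sucrose. Colours show log2(normalized reads + 1) minus the mean of the gene over the 12 libraries. GstE3 and Ugt36E1 are blue in all 4 controls and red in all 8 others, while rows of one class show no common pattern.

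The comparison of the RNAi-labelled libraries with the controls, with concentration in the model, asked which of these genes differ between the genotypes. Calls went in both directions. GstE3 and Ugt36E1 were 3.72- and 3.71-fold higher in the RNAi-labelled libraries. Ugt35B1, Ugt301D1, GstE12, GstD1, GstE5 and Ugt49C1 were higher by smaller factors, and GstD9, GstS1, GstT3, Ugt49B1 and GstE9 were lower. In all, 8 of 35 had higher and 5 had lower values by limma at an adjusted p under 0.05 (Benjamini-Hochberg method over 6552 genes). That is 37.1 percent of those tested, beside 15.5 percent of all tested genes (6.78 percent higher and 8.71 percent lower). The median log2 fold change was 0.02 for the transferase genes and 0.01 for all genes. The labels of 7 members did not overlap, beside 8.17 percent of all genes: 6 lay above every control, beside 3.14 percent of all genes, and 1 lay below, beside 5.02 percent. In RNA from whole heads, fewer cells of a type and less RNA per cell cannot be told apart.

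The 5 lower calls depended on how the libraries were scaled. When each library was set to the same total of reads, an alternative added after seeing the data, the median log2 fold change of all genes moved from 0.01 to 0.21 and the calls over all genes from 444 higher and 571 lower to 1327 and 305. Under it 13 transferase genes were higher and 0 lower by limma at the adjusted threshold. The 8 higher calls remained, the 5 lower ones were lost with their sign kept, and GstE2, GstO3, GstT4, GstZ1 and Ugt35C1 became higher calls. Scaling by the median of ratios or by quantiles kept all signs of the 13, but the call of GstE9 was lost under both (limma adjusted p = 0.0620 and 0.108) and those of GstE5 and Ugt49C1 under quantiles (limma adjusted p = 0.0578 and 0.0550). Lower values below are thus values relative to the bulk of genes in the library.

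**Figure D2:**
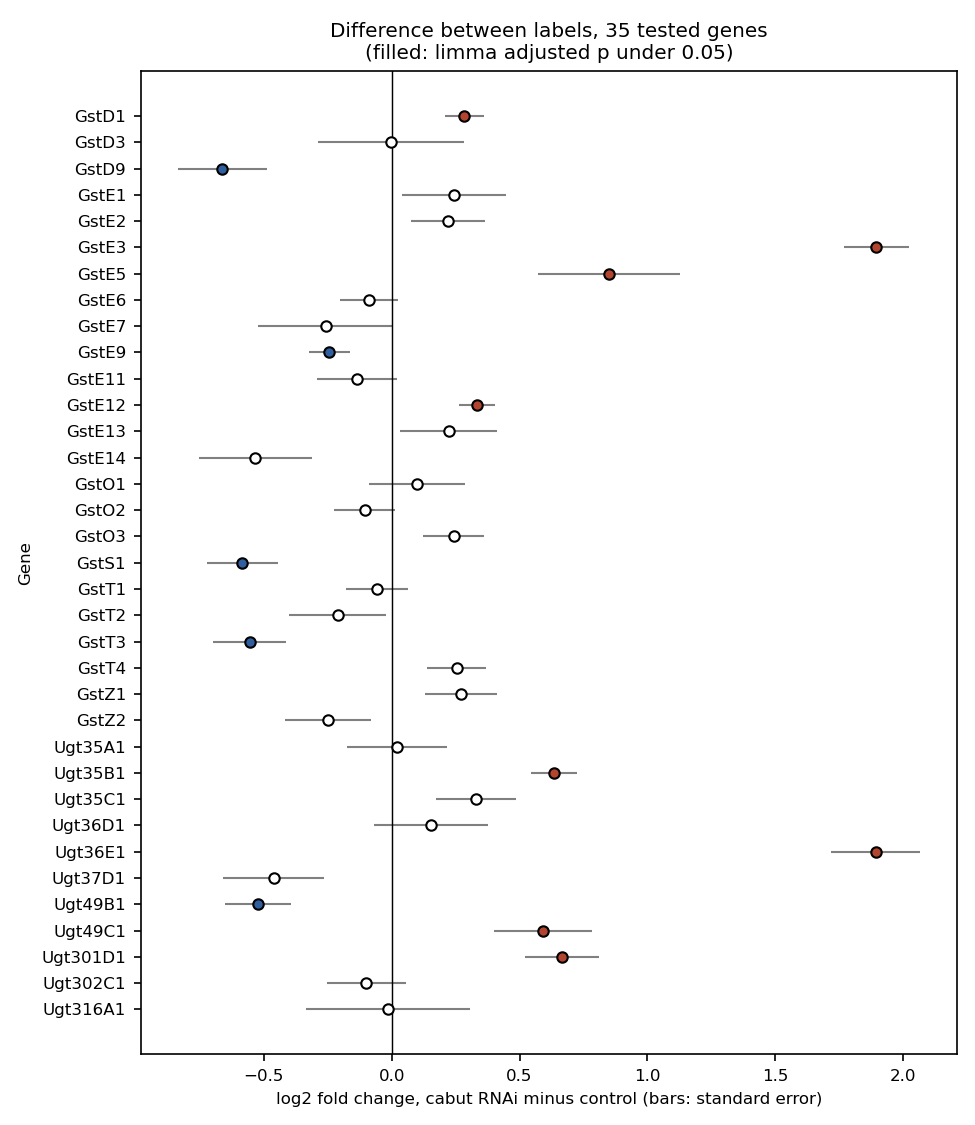
Points are log2 fold changes of the 35 tested genes between labels (RNAi-labelled libraries minus controls) with standard errors as bars. Filled points are the 13 genes with a limma adjusted p under 0.05, of which GstE3 and Ugt36E1 stand at 1.89 and the lowest, GstD9, at -0.66.

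The epsilon class, a group found in insects that includes enzymes acting on insecticides and lipid aldehydes, held one of the 2 changes above 3-fold, the other being that of Ugt36E1. GstE3 (CG17524, chromosome 2R, 14288222 to 14288974 in build dm3) ranged from 94.9 to 131 normalized reads in the 8 RNAi-labelled libraries, with a median of 102. The controls at 0, 25, 50 and 100 percent sucrose had 33.3, 21.8, 23.5 and 33.6. Every one of the 8 was thus well above every control, and the log2 fold change was 1.89 ± 0.13 (SE; limma adjusted p = 2.47e-09). By concentration the log2 difference lay between 1.54 at 100 percent and 2.14 at 25 percent.

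GstE12 (CG16936, chromosome 2R, 20654239 to 20655675) had the highest count of any member. It ranged from 997 to 1176 normalized reads, median 1114, in the RNAi-labelled libraries, while the controls had 812, 871, 907 and 935 in order of sucrose. The labels did not overlap, and the log2 difference was 0.33 ± 0.07 (limma adjusted p = 0.00205), from 0.25 to 0.37 over the concentrations. GstE5 (CG17527, 14292139 to 14292807) was near the minimum of detection, with 11.5 to 24.4 normalized reads, median 15.1, against 7.68, 4.20, 12.4 and 11.2. Its labels overlapped at the lowest values, and its log2 fold change was 0.85 ± 0.28 (limma adjusted p = 0.0425).

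GstE9 (CG17534, 14296516 to 14297340) was the epsilon gene called in the other direction. The RNAi-labelled libraries had 526 to 775 normalized reads, median 569, and the controls 834, 692, 686 and 595. The controls at 25, 50 and 100 percent all fell within the range of the RNAi-labelled libraries, with the control at 0 percent above it, and the log2 fold change was -0.24 ± 0.08 (limma adjusted p = 0.0460). The remaining 7 tested epsilon genes had no call. Among them GstE14, known as noppera-bo for its part in making the moulting hormone, had 19.3 ± 6.72 normalized reads (SD, n = 8) against 27.7 ± 6.5 (SD, n = 4) and a log2 fold change of -0.53 ± 0.22 (limma adjusted p = 0.122).

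In the delta class, whose best-known member GstD1 acts on DDT and is widely used as a reporter of oxidative stress, the called genes pointed in opposite directions. GstD1 (CG10045, chromosome 3R, 8193529 to 8194987) had 648 to 912 normalized reads, median 742, in the RNAi-labelled libraries, and 671, 602, 592 and 620 in the controls. Only the lowest values of the former reached into the range of the controls, and the log2 fold change was 0.28 ± 0.08 (limma adjusted p = 0.0138). A second transcript row of GstD1 stood at 154 ± 24.8 (SD, n = 8) against 139 ± 26.0 (SD, n = 4), a difference smaller than either SD. Its neighbour GstD9 (CG10091, 8191902 to 8193286) had 29.8 to 57.8, median 45.0, against 65.3, 60.4, 57.0 and 96.2. The control at 50 percent was within the range of the others and the control at 100 percent far above it; the log2 fold change was -0.66 ± 0.17 (limma adjusted p = 0.0119). GstD3, the third tested delta gene, was not called.

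GstS1 (CG8938, chromosome 2R, 12980758 to 12984482), the single sigma-class gene, encodes an enzyme that removes the lipid aldehyde 4-hydroxynonenal and is abundant in flight muscle. Without sucrose it had 62.2 and 64.4 normalized reads in the RNAi-labelled libraries and 64.0 in the control, which lay together. With sucrose the 6 RNAi-labelled libraries had 28.9 to 46.4, and the controls had 57.9, 80.5 and 51.5 at 25, 50 and 100 percent. The values with sucrose did not overlap, and over all concentrations the log2 fold change was -0.58 ± 0.14 (limma adjusted p = 0.00584). A second transcript row of GstS1 stood at 29.2 ± 9.70 (SD, n = 8) against 67.1 ± 13.2 (SD, n = 4). The 3 tested muscle markers were higher in the RNAi-labelled libraries, and the part of muscle tissue in the GstS1 values was not tested.

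Theta-class genes gave 1 call of 4. GstT3 (CG1702, chromosome X, 20338707 to 20340823) had 31.8 to 61.9 normalized reads, median 43.6, against 79.4, 57.1, 60.7 and 73.9 in the controls. The ranges overlapped between 57.1 and 61.9, and the log2 fold change was -0.55 ± 0.14 (limma adjusted p = 0.0106). No omega-class gene (GstO1, GstO2, GstO3) and neither zeta-class gene was called. The zeta-class genes GstZ1 and GstZ2 encode relatives of the maleylacetoacetate isomerase of tyrosine breakdown. GstZ1 had 74.0 ± 8.84 against 62.3 ± 14.9 (SD) and GstZ2 had 50.3 ± 12.2 against 58.3 ± 4.21, with 8 RNAi-labelled libraries and 4 controls.

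Of the 11 tested Ugt genes 4 were higher and 1 was lower. Ugt36E1 (CG17322, chromosome 2L, 18826772 to 18829061), which has been studied in olfactory neurons, had 27.7 to 52.1 normalized reads, median 39.6, in the RNAi-labelled libraries. The controls had 8.96, 13.4, 8.67 and 8.95 in order of sucrose, from only 7, 16, 7 and 4 counted reads. The lowest of the 8 was above the highest control, and the log2 fold change was 1.89 ± 0.17 (limma adjusted p = 2.49e-07), with 1.75 to 2.13 at the single concentrations.

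Ugt36E1 overlaps CG17597 in the table, and the use of strand in counting is not given in the sources used here, so reads in the shared stretch cannot be assigned to one of them. CG17597 was lower in the RNAi-labelled libraries (29.9 ± 8.36 against 57.0 ± 9.21 normalized reads, SD, n = 8 and 4; log2 fold change -0.94 ± 0.16, limma adjusted p = 3.20e-04), the opposite direction to Ugt36E1. Other called members with an overlapping gene were GstE12, GstE9, Ugt49B1 and GstD9; the partners of the first 3, CG3894, imd and CG9480, were not called. GstD9 overlaps GstD1, which differed in the other direction.

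Ugt35B1 (CG6649, chromosome 3R, 6994219 to 6995955), known as an antenna-enriched enzyme, had 171 to 208 normalized reads, median 183, against 137, 127, 99.1 and 123. The labels did not overlap, and the log2 fold change was 0.63 ± 0.09 (limma adjusted p = 4.13e-05). All 5 antennal markers had a mean under 10, so a difference in antennal tissue was not tested. Ugt301D1 (CG10178, chromosome 2L, 18509572 to 18513481) had 32.8 to 56.3, median 41.5, against 28.2, 26.9, 23.5 and 26.9, again without overlap (log2 fold change 0.67 ± 0.15, limma adjusted p = 0.00298).

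Ugt49C1 and Ugt49B1 are neighbours on chromosome 2R that differed in opposite directions. Ugt49C1 (CG15661, 17102939 to 17105258) had 22.5 to 33.6 normalized reads, median 24.6, against 19.2, 21.8, 22.3 and 8.95. The lowest of the 8 was just above the highest control. The control at 100 percent was far below the rest, but its value came from only 4 counted reads. The log2 fold change was 0.59 ± 0.19 (limma adjusted p = 0.0428). Ugt49B1 (CG4302, 17100383 to 17102473) had 67.8 to 109, median 96.0, against 132, 117, 120 and 143. It was the 1 transferase gene with every RNAi-labelled library below every control, with a log2 fold change of -0.52 ± 0.13 (limma adjusted p = 0.00765) that ran from -0.12 at 25 percent to -1.02 at 100 percent sucrose.

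**Figure D3:**
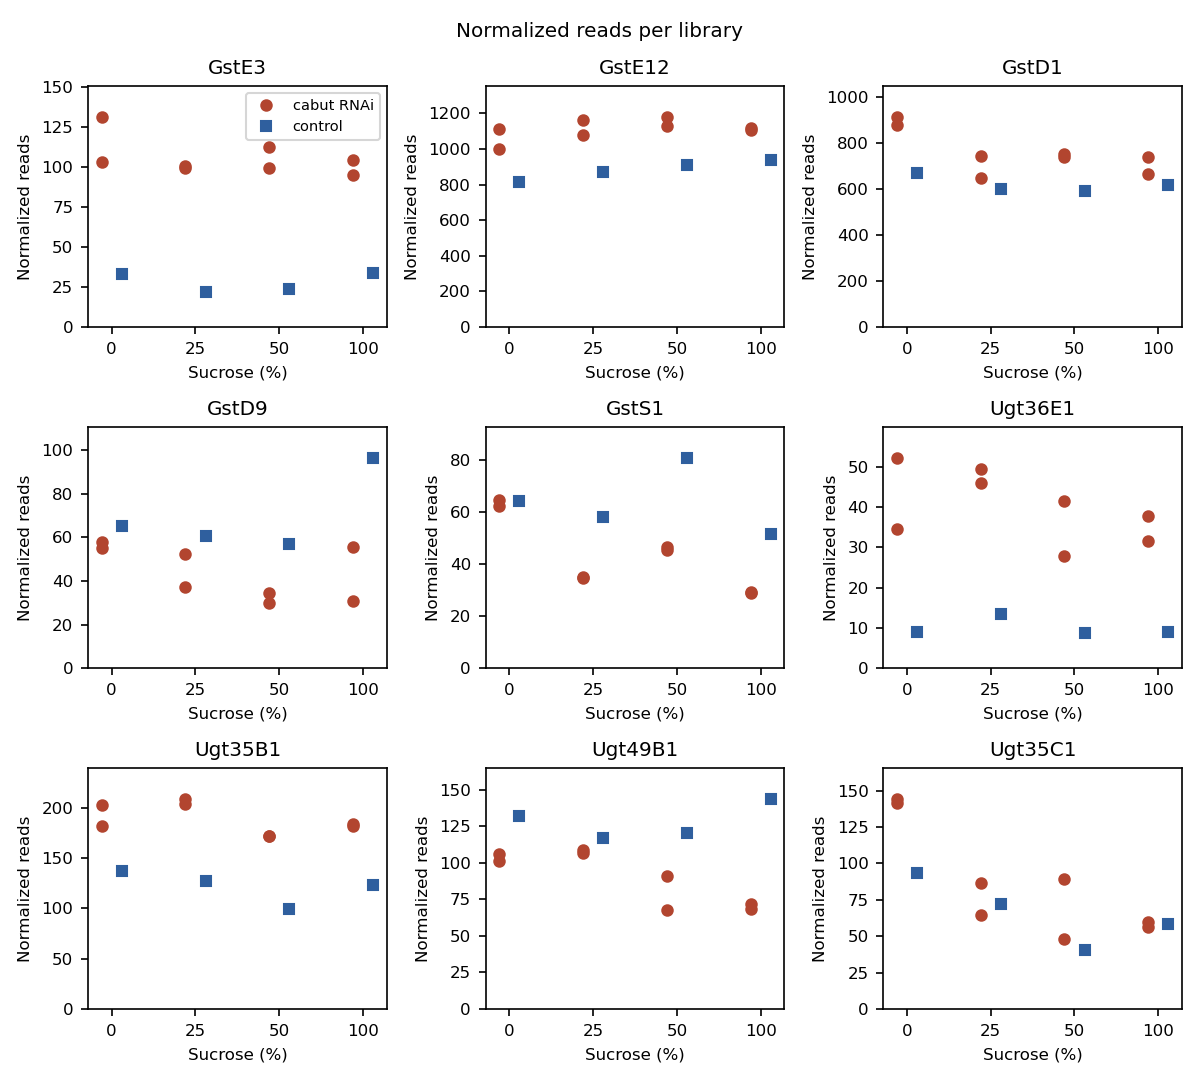
Normalized reads (linear axis from 0) of 9 genes against sucrose concentration, 1 point per library, circles for the RNAi-labelled libraries and squares for controls. GstE3, Ugt36E1 and Ugt35B1 separate by label at every concentration, GstS1 separates only where sucrose was given, and Ugt35C1 is highest at 0 percent in both labels.

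At each of the 4 concentrations the label difference of the 13 called genes had 1 sign. They were selected on the mean of these differences, which raises that count, and among all 35 genes 16 had 1 sign throughout. The share over all tested genes was not computed. The 22 genes without a call had log2 fold changes between -0.53 and 0.33 with standard errors of 0.114 to 0.320. With single libraries left out, 6 genes were called in every fit: GstE3, GstE12, GstS1, Ugt301D1, Ugt35B1 and Ugt36E1, of which GstS1 came nearest to the threshold (adjusted p up to 0.04997). GstD1 lost the call without the control at 0 or at 50 percent sucrose (0.24 and 0.27), GstD9 and GstT3 without the control at 50 or at 100 percent (-0.61 and -0.48 for GstD9, -0.51 and -0.47 for GstT3) and Ugt49B1 without the control at 100 percent (-0.36). GstE9 kept it only without the second RNAi-labelled library at 0 percent, the first at 100 percent or the control at 100 percent. GstE5 kept it only without the first RNAi-labelled libraries at 50 or 100 percent or the controls at 50 or 100 percent, and without the control at 25 percent its value was 0.54. Ugt49C1 kept it only without the first RNAi-labelled libraries at 25 or 50 percent or the control at 25 percent, and its value without the control at 100 percent was 0.37. These 3 (GstE9, GstE5 and Ugt49C1) were not called by edgeR or DESeq2 or with no filter on low values, and GstD1 and GstD9 lost their calls without the intensity trend of limma. GstS1 lost its call when concentration was left out of the model.

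Position on the chromosome, which the choice of members did not use, grouped many of them. With starts within 10 kb of each other, 50 of the 70 genes fell into 11 clusters. In 3 clusters called genes went in both directions. The cluster of 10 GstE genes (chromosome 2R, 14284248 to 14297340, 7 tested) held GstE3 and GstE5 as higher and GstE9 as lower. The cluster of 11 GstD genes (chromosome 3R, 8190496 to 8211348, 3 tested) held GstD1 as higher and GstD9 as lower, and the pair Ugt49B1 and Ugt49C1 differed likewise. The lower calls among these are the ones that were lost with equal library totals.

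In the GstE cluster the nearest tested gene on one side of GstE3 was GstE5, called higher (0.85), with the untested GstE4 between them. On the other side were GstE2 and GstE1. GstE2 (49.9 ± 7.25 against 42.5 ± 5.73 normalized reads, SD, n = 8 and 4) and GstE1 (24.3 ± 5.40 against 20.8 ± 6.79) were not called, with log2 fold changes of 0.22 and 0.24. Beside Ugt36E1, Ugt36D1 had 16.1 ± 5.10 against 13.9 ± 2.44 and was not called. Beside Ugt35B1, Ugt35A1 had 16.9 ± 2.16 against 16.9 ± 3.52. The differences between such neighbours were not themselves tested.

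**Figure D4:**
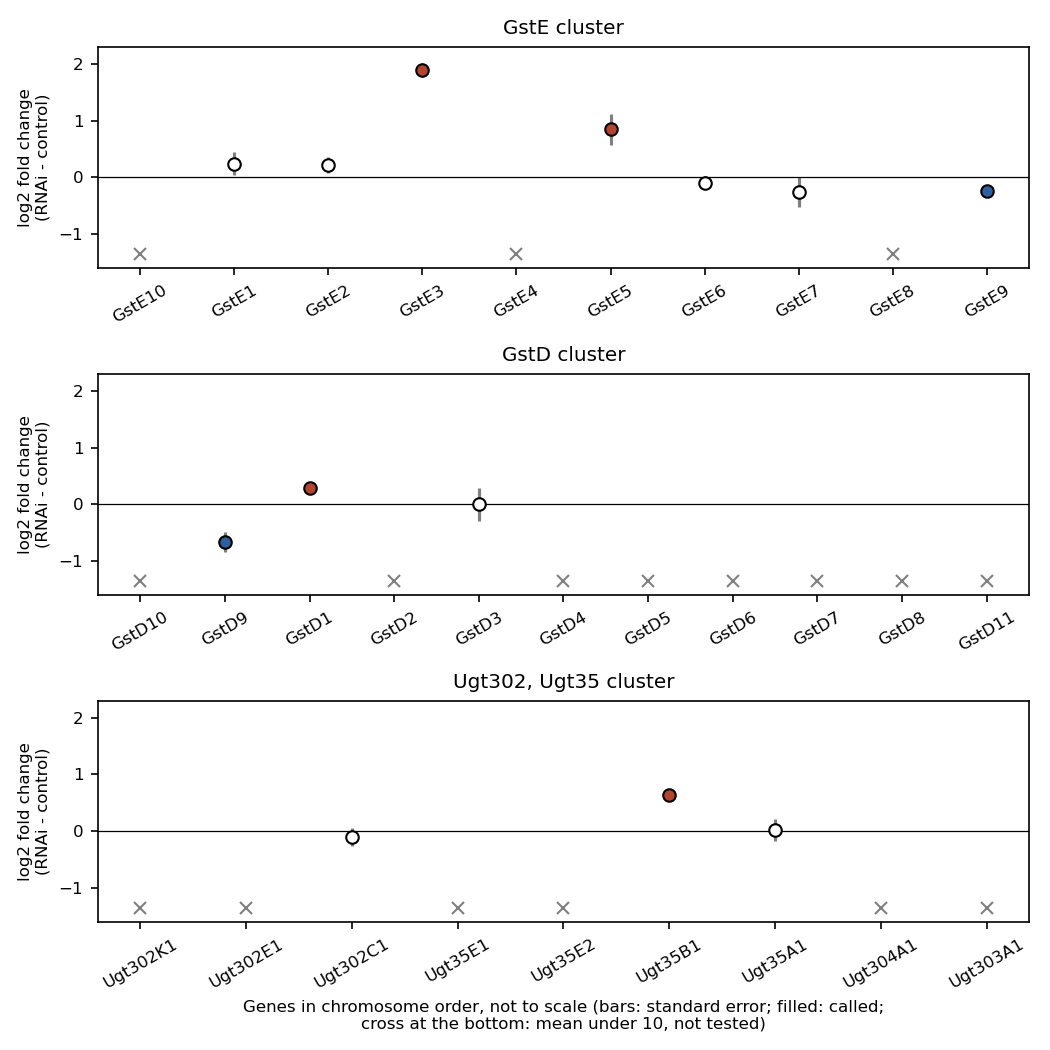
Log2 fold changes between labels (RNAi-labelled libraries minus controls, bars are standard errors) for the genes of 3 clusters in chromosome order, not to scale. Filled points are called, and crosses at the bottom mark genes with a mean under 10 that were not tested. GstE3 at 1.89 lies between GstE2, which was not called, and GstE4, which was not tested and is followed by GstE5, called at 0.85. Ugt35B1 at 0.63 lies between Ugt35E2, which was not tested, and Ugt35A1, which was not called.

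Other genes of conjugation and its control were read from a list of 55, of which 54 were found and 43 tested. Between labels 8 were higher and 5 lower by limma, beside 6.78 and 8.71 percent of all tested genes, with a median log2 fold change of -0.06. None of the 4 tested regulators, of 6 listed, was called by limma, and cnc, the fly counterpart of the mammalian stress regulator Nrf2, had 61.0 ± 6.82 normalized reads against 64.7 ± 17.2 (SD, n = 8 and 4; log2 fold change -0.06 ± 0.13). Of 6 tested genes of glutathione synthesis and turnover, CG4752 was higher (37.1 ± 4.54 against 17.9 ± 3.12; log2 fold change 1.02 ± 0.16), whereas Gclc, which makes the first step of glutathione synthesis, stood at 51.3 ± 4.14 against 52.7 ± 3.96 and was not called.

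Among other glutathione and thioredoxin enzymes 2 of 11 were lower. The omega-class gene se had 52.7 ± 17.2 normalized reads against 165 ± 13.6 (SD, n = 8 and 4), a log2 fold change of -1.69 ± 0.18 (limma adjusted p = 1.99e-06), and the glutaredoxin gene Grx1 had 135 ± 15.7 against 178 ± 25.8. Of 4 genes of UDP-sugar supply, from which Ugt enzymes draw their sugar, Pgm1 (phosphoglucomutase, -0.56 ± 0.11) and sgl (UDP-glucose dehydrogenase, -0.54 ± 0.13) were lower. In the export list Mdr65, an ABC transporter gene, was higher (43.4 ± 7.36 against 21.2 ± 3.83). With equal library totals the calls of Grx1 and sgl were lost and those of se and Pgm1 were not. That of Grx1 was lost as well without the control at 0, 50 or 100 percent sucrose (-0.35, -0.41 and -0.31).

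Of the listed first-phase genes, whose enzymes oxidise or hydrolyse compounds before conjugation, 5 of 10 tested were higher and 1 was lower. Over all tested genes the shares were 6.78 and 8.71 percent. The list was a choice of 11 genes, made with earlier results of these data known. Cyp6a8, a cytochrome P450 gene, led with 124 ± 67.4 normalized reads against 18.1 ± 1.13 (SD, n = 8 and 4), a log2 fold change of 2.57 ± 0.19 (limma adjusted p = 1.75e-08). The juvenile hormone epoxide hydrolase gene Jheh1 (0.81 ± 0.11) and the P450 genes Cyp6w1 (0.71 ± 0.11), Cyp6d5 (0.58 ± 0.09) and Cyp6a2 (0.41 ± 0.11) followed, and alpha-Est7, an esterase gene, was lower (-0.30 ± 0.09), a call lost with equal library totals (-0.09). Of 3 genes acting on peroxide and superoxide, Sod2 was higher (0.34 ± 0.09). The Cyp6a2 call was lost without the control at 0 or at 25 percent sucrose (0.27 and 0.37), that of Sod2 without the control at 25 or at 100 percent (0.29 and 0.27), and that of alpha-Est7 without the control at 50 or at 100 percent (-0.29 and -0.23).

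The mean of the 25, 50 and 100 percent libraries was set against that of the 0 percent libraries over both labels, which asked which transferase genes differ between flies with and without sugar. Ugt35C1 (CG6633, chromosome 3R, 6952316 to 6954035), a Ugt gene outside the clusters, fell with sucrose over the 2 labels. It was the single call among the 35, with 1 lower and 0 higher by limma. Of all tested genes 2.15 percent were called (0.672 percent higher and 1.48 percent lower). By limma 7 of the 35 had an unadjusted p under 0.05, beside 722 of all 6552 genes. With edgeR 3 were called lower and with DESeq2 2, and both called 0 higher. Over all 6552 genes edgeR called 43 higher and 137 lower, and DESeq2 39 and 114. The median log2 fold change was -0.15 for the transferase genes, 26 of 35 being below 0, and 0.01 for all genes. Among the marker lists, the 1 tested gut gene of 4 listed, the amylase gene Amy-p, was called lower in the same comparison (-1.53 ± 0.23). It had 329 and 250 normalized reads without sucrose and 48.1 to 124 with it in the RNAi-labelled libraries, and 225 without and 82.2, 109 and 159 with it in the controls. The 5 tested fat body genes had a median of 0.36 with none called by limma, and no other marker gene was called. The part of these markers in the sucrose results was not tested. What the food at 0 percent held besides sucrose is not given, so a response to sugar and one to feeding cannot be told apart.

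Without sucrose, Ugt35C1 had 144 and 141 normalized reads in the RNAi-labelled libraries and 93.5 in the control. With sucrose the RNAi-labelled libraries had 86.4 and 64.8 at 25 percent, 89.3 and 48.4 at 50 percent, and 56.1 and 60.0 at 100 percent. The controls with sucrose had 72.2, 40.9 and 58.2. All values with sucrose lay below the value or values without it of the same label. The log2 fold change was -0.98 ± 0.17 (limma adjusted p = 0.00183), and it was called in each of 26 alternative fits, with values between -1.10 and -0.92.

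GstE9 and GstS1 came next without reaching the threshold (log2 fold change -0.33 ± 0.09, adjusted p = 0.0531, and -0.55 ± 0.15, adjusted p = 0.0669, limma). GstE9 had 627 and 775 normalized reads without sucrose and 526 to 576 with it in the RNAi-labelled libraries, and 834 without and 692, 686 and 595 with sucrose in the controls. Within each label every value with sucrose was below those without. In 8 of 26 alternative fits GstE9 was called. GstO3, an omega-class gene, had the lowest p among genes above 0 (0.37 ± 0.13, limma adjusted p = 0.202), with 58.9 in the control without sucrose and 82.2, 81.8 and 100.7 in those with it.

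Within the 8 RNAi-labelled libraries the comparison of sucrose with none called 1.97 percent of all genes by limma (1.37 percent lower). Over all genes edgeR called 42 higher and 114 lower there, and DESeq2 34 and 86. Of the transferase genes 8 had an unadjusted p under 0.05 by limma. By limma, edgeR and DESeq2 alike, 2 transferase genes were called lower and 0 higher. These were Ugt35C1 (-1.10 ± 0.20, adjusted p = 0.0107) and GstS1 (-0.80 ± 0.15, adjusted p = 0.0169), whose values in every library stand above. For GstS1 the 2 libraries without sucrose (62.2 and 64.4 normalized reads) were above all 6 with it (28.9 to 46.4). Both calls were lost without either of the libraries at 0 percent, with values of -1.09 and -1.12 for Ugt35C1 and -0.82 and -0.77 for GstS1 and limma adjusted p up to 0.197. The call of Ugt35C1 was also lost without the trend (adjusted p = 0.132, limma) and with no filter on low values (0.253), and that of GstS1 when its transcript rows were summed (-0.68, adjusted p = 0.0527). Since Ugt35C1 is in both sucrose comparisons and these share libraries, the second is no separate support for the first.

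In the same libraries Amy-p was lower (-1.80 ± 0.22) and the yolk genes Yp2 and Yp3 were higher (1.03 ± 0.20 and 0.78 ± 0.16), the 5 tested fat body genes having a median of 0.69. Yp2 had 6375 and 6450 normalized reads without sucrose and 8939 to 19544 with it. No other marker gene was called, and the part of these markers in the results was not tested.

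Of the 10 tested first-phase genes of the pathway list, 7 were lower in the same libraries and 0 higher (limma). Over all tested genes 1.37 percent were lower and 0.595 percent higher. The 7 were Cyp6a8 (-1.39 ± 0.14), Cyp28d1 (-0.90 ± 0.14), Jheh1 (-0.89 ± 0.10), Cyp6a2 (-0.62 ± 0.10), Cyp6w1 (-0.60 ± 0.12), Jheh2 (-0.58 ± 0.10) and Cyp6g1 (-0.51 ± 0.11). The microsomal glutathione transferase gene Mgstl, which is not related in sequence to the other Gst genes, was lower as well (-0.54 ± 0.09). Cyp6a8 had 242 and 223 normalized reads without sucrose and 77.0 to 99.5 with it. Of these 8 genes Cyp6a8 and Jheh1 kept their calls with any single library left out. Without the trend the calls of Cyp28d1, Cyp6a2, Cyp6g1, Cyp6w1, Jheh2 and Mgstl were lost (limma adjusted p from 0.114 to 0.290). With no filter on low values those of Cyp28d1, Cyp6g1, Cyp6w1 and Jheh2 were lost as well. Those of Cyp28d1, Cyp6a2, Jheh2 and Mgstl were lost without either library at 0 percent. That of Cyp6g1 was lost without the second library at 0 percent (-0.36), the first or second at 50 percent or the first at 100 percent, and that of Cyp6w1 without the first at 0 percent (-0.43) or the second at 50 or 100 percent. The regulator cnc was not called (-0.19 ± 0.15). Over both labels 1.48 percent of all tested genes were lower with sucrose and 0.672 percent higher (limma). Of the 43 tested genes of the whole list 4 were lower and 0 higher (Jheh1 -0.68, Cyp28d1 -0.65, Cyp6a8 -0.88 and the glutathione peroxidase gene Gtpx -0.44). Of these calls, those of Cyp28d1 and Cyp6a8 were lost without either RNAi-labelled library at 0 percent (-0.61 and -0.50; -0.64 and -0.70), that of Cyp6a8 also without the first at 50 or the second at 100 percent, with -1.39 without the control at 0 percent, and that of Jheh1 without the first at 0 percent. Gtpx was called in 3 of the 12 left-out fits, and without the control at 0 percent its value was -0.24. All 4 calls over both labels were lost in limma without the trend.

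In the controls, 3 libraries with sucrose were set against 1 without, the spread being taken from the replicated groups. No transferase gene was called by limma, edgeR or DESeq2, where limma called 1.16 percent of all genes (0.427 percent higher and 0.733 percent lower). By limma 4 of the 35 had an unadjusted p under 0.05, beside 935 of all 6552 genes, and the smallest adjusted p was 0.188 for GstO3. Ugt35C1 had a log2 fold change of -0.74 ± 0.29 and GstS1 of -0.04 ± 0.20. From the pathway list Gtpx was lower (-0.83 ± 0.16), with 466 normalized reads without sucrose and 239, 312 and 239.5 with it. The call was lost without the control at 25 or at 100 percent (-0.77 in each). It was lost as well with no filter on low values, in limma without the trend and with DESeq2. The thioredoxin gene dhd, known from the female germ line, was called higher from the control at 100 percent alone, which had 141 normalized reads beside 0 in the other 3 controls; without that library its value was 0.

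**Figure D5:**
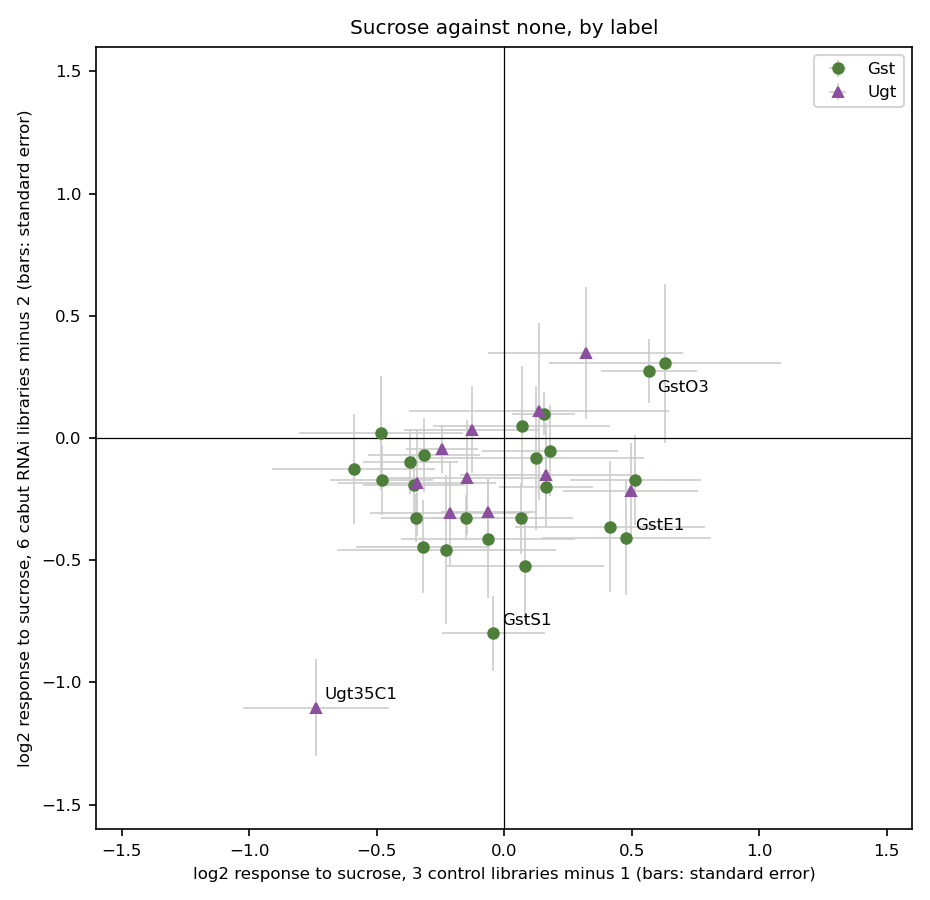
Each point is 1 tested gene, circles for Gst and triangles for Ugt. The horizontal axis is the log2 response to sucrose in the controls (3 libraries minus 1) and the vertical axis that in the RNAi-labelled libraries (6 minus 2), bars being standard errors. Ugt35C1 is low on both axes (-0.74 and -1.10), and GstS1 is near 0 in the controls (-0.04) and at -0.80 in the others.

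The difference between the responses was tested directly. It called 0 of 35 transferase genes (limma, edgeR and DESeq2), where limma called 0.229 percent of all genes (0.153 percent higher and 0.0763 percent lower). By limma 3 of the 35 had an unadjusted p under 0.05, beside 691 of all 6552 genes. The lowest adjusted p was that of GstS1, whose response in the RNAi-labelled libraries minus that in the controls was -0.76 ± 0.25 (limma adjusted p = 0.339). Those of GstE1 and Ugt37D1 were -0.89 ± 0.41 and -0.71 ± 0.33 (adjusted p = 0.472 for both, limma). That of Ugt35C1 was -0.36 ± 0.35 (limma adjusted p = 0.772).

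From 25 to 100 percent sucrose no trend with the concentration was called. The slope per doubling of the concentration over the 9 libraries with sucrose gave 0 calls among the 35 by limma, edgeR and DESeq2. Of all genes limma called 0 percent. By limma 1 of the 35 had an unadjusted p under 0.05, beside 272 of all 6552 genes. This was GstT1 (-0.20 ± 0.08 on the log2 scale, limma adjusted p = 0.9996). Slopes of the 35 genes lay between -0.34 and 0.28, with a median of 0.01. For Ugt35C1 the slope was -0.17 ± 0.11, and a test for any difference among the 4 concentrations (limma F test) called 1 transferase gene of 35 and 95 of all genes.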

How the data were processed

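Heads of flies were sequenced in 12 libraries, with poly(A) selection after fragmentation per the labels' protocols, which places reads near 3' ends. Per the submitters' processing notes, Bowtie, TopHat and dm3 were used, with no version or role stated; how reads were counted, whether by strand, and how they were scaled is not given. The deposited table holds 21081 transcript rows with a signal per library that the authors had normalized. In each library 100 percent of values were whole multiples of 1 step (tolerance 0.01), so whole reads were recovered by division, and p-values, fold changes and counts below were computed from the table here. Rows were joined by CG or CR number, and symbols from the RefSeq gene table were found for 13536 of 14010 (Release 6 names; no coordinates used). Each of the 13759 genes was represented by its row with the highest mean. For 101 genes with at least 100 reads, reads equalled those of another gene in every library; no member was among them. Coordinates are those of the table in dm3, counted from 1.

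Genes with a mean of at least 10 were tested on log2(value + 1), which understates changes of low genes, with limma 3.58.1 (intensity trend, R 4.3.3), Benjamini-Hochberg adjustment over 6552 genes and a threshold of 0.05. One model over the 12 libraries held the label and the concentration, the latter as a factor. The response within the RNAi-labelled libraries used those 8, the response within controls and the difference of responses used 8 group means, and the dose trend used 9 libraries. With 1 control per concentration the spread of controls is assumed to be that of the replicated groups. Between replicates the chi-square of the reads divided by its degrees of freedom was 2.73 to 5.75, more than counting error gives. The design had assumed normalized values, and edgeR 4.0.16 and DESeq2 1.42.0 were run on the recovered reads as alternatives. Other alternatives were pseudocounts of 0.5 and 5, no filter or a minimum mean of 50, scaling by median of ratios or by quantiles, limma without trend or with robust estimation, each library left out, the replicate number as a block, summed transcript rows, no covariate and an F test. Scaling to equal library totals was added after seeing the data. Some of the limma fits were also run on simulated reads with known changes, and the outcome is not given here. Precision is limited by depth: a normalized read corresponded to about 1 to 2 counted reads in most libraries and less than 1 in 4 of them.

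The members, the gene lists and the tests were chosen with earlier results of these data known. Named were all tested members called in a comparison, the 3 Gst and 3 Ugt genes with the highest means, members under the minimum by name, cbt and called genes of the pathway list; others named stand beside a called neighbour or had the lowest p.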

Additional observations from a re-analysis of the deposited data

Results flagged for a closer look

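No group held 4 or more libraries, so single libraries were not tested for standing apart within a group. The response of Cyp6a8, a cytochrome P450 gene of the pathway list, differed between the labels by a test of the difference itself. Its log2 response to sucrose in the RNAi-labelled libraries minus that in the controls was -1.54 ± 0.27 (SE; limma adjusted p = 0.0423). It had 242 and 223 normalized reads without sucrose and 77.0 to 99.5 with it in the RNAi-labelled libraries, where every value with sucrose was below both without. In the controls it had 16.6 without and 19.3, 18.6 and 17.9 with sucrose. The call was lost without either RNAi-labelled library at 0 percent, the first at 25, the first at 50 or either at 100 percent. It was also lost in limma without the trend (adjusted p = 0.177), and neither edgeR (adjusted p = 0.253) nor DESeq2 made it.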

How the results depend on the processing

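No called result changed its sign in the alternatives run, whereas values near 0 did: the median of the transferase genes ran from -0.07 to 0.22 for labels (0.02) and from -0.01 to 0.02 for the dose trend (0.01). Between labels (8 higher, 5 lower) there were 4 higher with a minimum mean of 50, 5 higher and 3 lower without the trend, 3 lower without the sucrose term, and 13 higher and 0 lower with equal library totals; leaving out single libraries gave 5 to 8 higher and 2 to 5 lower. With sucrose (1 lower) there were 2 lower with no filter, a minimum mean of 50, median-of-ratios scaling, robust estimation, the replicate block, equal totals or DESeq2, 3 with edgeR, and 1 to 2 with single libraries left out. Within the RNAi-labelled libraries (2 lower) there was 1 without the trend or with transcripts summed, and 0 to 2 with libraries left out. With no filter, 3 genes were higher and 4 lower in controls, and 4 higher and 4 lower in the difference of responses, where 0 were called at the minimum of 10; all but GstS1 had a mean under 10. Over all genes the label calls (444 higher, 571 lower) came to 256 higher with DESeq2, to 1327 and 305 with equal totals, and to 290 to 404 and 433 to 568 with libraries left out. The sucrose calls (44 and 97) came to 9 and 50 without the trend and to 6 and 31 without the label term, those within the RNAi-labelled libraries (39 and 90) to 9 and 25 without the trend, and those in controls (28 and 48) to 287 and 135 with no filter and 2 higher and 21 lower with DESeq2. Calls of the difference (10 and 5) came to 95 and 220 with no filter and to 4 and 0 with DESeq2. The cause of these moves was not tested, apart from the genes that a filter adds or removes. The replicate numbers of the RNAi-labelled libraries did not pair them (correlations of deviations between concentrations from -0.11 to 0.14), and the block moved no other count of members past 1.5 times. The response in controls and the difference could not be computed without the control at 0 percent. Counts near the minimum of 10 and single controls limit what could be called.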
